A study of Homo sapiens with 30 samples.

Results

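Mitochondrial ribosomal protein genes are the nuclear genes whose symbols begin with MRPL or MRPS, for proteins of the large and the small subunit of the ribosome inside mitochondria. Every row of the count tables with a symbol of that form was taken, ending in a number and optionally a letter from A to C, which gave 78 genes of 27630. The rule used names and no measured value, though it was chosen with earlier results of these data known. The 8 RNA libraries were made from HEK293FT, a line of human embryonic kidney origin that carries the SV40 large T antigen. All 8 came from asynchronous cells that had received, by Lipofectamine 2000, a construct joining the peroxidase APEX2 to lamin B1, a protein of the layer under the inner nuclear membrane. The groups held 2 libraries each. These were a nuclear fraction, a cytosolic fraction, a native APEX2 pull-down at the nuclear lamina (native lamina) and the same kind of pull-down from cells fixed with paraformaldehyde (PFA lamina). The labels name no library from cells without the construct, so the fractions were the only background. They do not say whether the pairs came from separate cultures, so the p-values measure the spread between these libraries, which may be technical. How far the transfected protein stands in for the lamin B1 of the cell was not tested.

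Mitochondrial ribosomes translate the few messenger RNAs of the mitochondrial genome, which code for core subunits of the respiratory chain and of ATP synthase. Their RNA is made inside the organelle, whereas their proteins are coded in the nucleus, translated in the cytosol and imported. Some of these proteins have counterparts in bacterial ribosomes, and others occur only in mitochondrial ribosomes. The messenger RNA of each gene therefore passes from nucleus to cytosol before its protein reaches the mitochondrion.

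Promoters are shown for 5 genes on which the results turn: MRPL51, with one of the lowest nuclear-to-cytosolic ratios, MRPS34, with the largest gain at the native lamina over the nucleus, the neighbours MRPL46 and MRPS11, and MRPS25, the gene with the highest ratio. The windows run from 250 bases before to 50 bases after the start site, 5′ to 3′ on the gene's strand, from RefSeq on GRCh38.p14. Capitals mark matches on either strand to AAGATGGC, a motif read by YY1, to CCGGAAG, a core read by ETS-family factors, or to the NRF1 motif, spelled GCGCA, any base, GCGC.
MRPL51, chr12:6493213-6493512, minus strand: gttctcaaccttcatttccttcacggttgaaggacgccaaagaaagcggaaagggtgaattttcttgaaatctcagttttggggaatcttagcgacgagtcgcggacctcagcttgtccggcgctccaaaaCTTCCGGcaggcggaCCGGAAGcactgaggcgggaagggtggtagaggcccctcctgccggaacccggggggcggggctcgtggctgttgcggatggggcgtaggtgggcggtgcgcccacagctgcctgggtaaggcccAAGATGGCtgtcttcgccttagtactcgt
MRPS34, chr16:1773085-1773384, minus strand: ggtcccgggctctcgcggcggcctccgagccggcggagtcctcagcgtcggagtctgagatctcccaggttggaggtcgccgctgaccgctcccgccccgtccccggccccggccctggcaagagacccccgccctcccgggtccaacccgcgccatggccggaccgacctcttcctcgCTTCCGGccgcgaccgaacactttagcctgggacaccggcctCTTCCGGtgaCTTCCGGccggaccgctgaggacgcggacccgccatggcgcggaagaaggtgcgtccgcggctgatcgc
MRPL46, chr15:88467339-88467638, minus strand: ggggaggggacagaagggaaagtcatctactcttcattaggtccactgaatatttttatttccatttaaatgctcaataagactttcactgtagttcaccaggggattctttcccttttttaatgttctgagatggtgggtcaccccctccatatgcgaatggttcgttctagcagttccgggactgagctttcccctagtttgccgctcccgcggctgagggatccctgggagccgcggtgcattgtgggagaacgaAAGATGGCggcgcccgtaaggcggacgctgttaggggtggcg
MRPS11, chr15:88467458-88467757, plus strand: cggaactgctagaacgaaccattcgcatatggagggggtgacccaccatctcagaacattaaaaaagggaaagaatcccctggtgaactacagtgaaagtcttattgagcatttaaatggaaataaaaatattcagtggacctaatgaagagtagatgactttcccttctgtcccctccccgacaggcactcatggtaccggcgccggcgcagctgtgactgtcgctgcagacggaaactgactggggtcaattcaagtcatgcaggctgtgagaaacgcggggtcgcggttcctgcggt
MRPS25, chr3:15065266-15065565, minus strand: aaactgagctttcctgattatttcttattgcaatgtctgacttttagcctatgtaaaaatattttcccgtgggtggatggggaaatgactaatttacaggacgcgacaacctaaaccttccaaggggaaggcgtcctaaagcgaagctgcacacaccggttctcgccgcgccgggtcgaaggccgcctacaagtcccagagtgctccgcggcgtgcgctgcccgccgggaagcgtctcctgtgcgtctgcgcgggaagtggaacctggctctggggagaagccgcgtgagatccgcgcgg
MRPL51 and MRPS34 held 3 matches each and MRPL46 held 1, while neither MRPS11 nor MRPS25 held any. Of the 78 genes, 69 had an entry in the RefSeq table, with 85 windows of 300 bases. AAGATGGC stood in a window of 21 of the 69 genes (30.4%), against 3.52% of all 27305 symbols and 5.82% of the tested genes with an entry. CCGGAAG stood in 30 (43.5%), against 12.2% of all symbols and 20.1% of the tested genes. The NRF1 motif stood in 9 (13.0%), against 6.98% and 12.1%. AAGATGGC and CCGGAAG can share 3 bases, so a few matches may overlap. These are matches of letters only, and binding was not measured. The 21 genes with AAGATGGC had a median nuclear-to-cytosolic log2 fold change of -1.23 and the 48 without it -1.48. For CCGGAAG the medians were -1.25 with and -1.23 without the motif.

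Total counts per library ran from 2321291 in PFA lamina replicate 2 to 8557777 in native lamina replicate 1. All 78 genes were tested, with 7 to 1014 counts per gene and library. LMNB1, the gene of the construct, took 0.304% to 0.520% of counts in the fractions, 8.60% and 2.96% in the native preparation, and 8.89% and 9.49% in the fixed one. The 4 kidney-line markers KRT8, KRT18, VIM and PAX2 were tested, though PAX2 stayed under 7 normalised CPM (counts scaled by library total and TMM factor) in every library and was at 0 in cytosolic replicate 2. Of the 5 markers of other cell types, the blood genes PTPRC, HBB and CD3E had no count, and ALB and MYH7 had at most 4. A count of 0 allows up to 0.351 to 1.29 CPM, depending on the library. The summed level of 5 nuclear-retained RNAs, led by MALAT1, was 13962 and 23034 normalised CPM in the nuclear libraries and 1140 and 1449 in the cytosolic ones. Native libraries had 6575 and 13937 and PFA libraries 870 and 4273, so both lamina pairs differed in it. RNR1 and RNR2, the mitochondrial ribosomal RNAs, together took 30.4% and 31.3% of counts in the nuclear fraction. They took 7.81% and 15.0% in the cytosolic fraction, 6.82% and 8.16% in the native preparation and 20.6% and 7.13% in the fixed one. Ribosomal RNA was depleted before library preparation, so these are shares of what was left.

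Of all counts in nuclear replicate 1, the 78 genes made up 0.159% (Wilson 95% interval 0.156 to 0.162), and in nuclear replicate 2 they made up 0.157% (0.154 to 0.160). The cytosolic shares were 0.400% (0.395 to 0.404) in replicate 1 and 0.340% (0.335 to 0.345) in replicate 2. Native lamina replicate 1 had 0.288% (0.284 to 0.292) and its replicate 2 had 0.218% (0.214 to 0.222). PFA lamina replicate 1 had 0.374% (0.369 to 0.379), while replicate 2 had 0.278% (0.271 to 0.285). The intervals cover counting error only, and the gaps within the cytosolic pair and both lamina pairs were wider than them. With RNR1 and RNR2 left out of the totals, the shares were 0.228% and 0.229% in the nucleus, 0.433% and 0.400% in the cytosol, 0.309% and 0.238% in the native preparation, and 0.471% and 0.299% in the fixed one. The nuclear libraries stayed lowest, next to native replicate 2. A share is relative to the other RNA of its library, so it does not give the amount of RNA in a compartment.

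**Figure D1:**
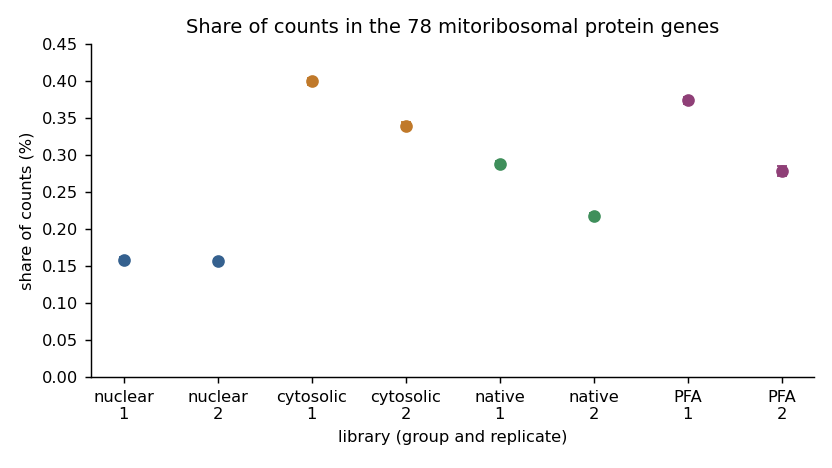
Share of each library's counts (%, vertical axis) in the 78 genes, by library, with 95% Wilson intervals mostly hidden by the points. The 2 nuclear libraries sit at 0.159% and 0.157%, below all 6 others, and replicate 1 lies above replicate 2 in the cytosolic, native and PFA pairs.

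Between the fractions the question was how the relative level of each messenger RNA differed. Levels are scaled within each library and the amount of RNA per fraction was not measured here. A fold change therefore does not say in which compartment most molecules of a gene lay. The genes were lower in the nucleus, with a median log2 fold change of -1.23 against 0.13 over all 16504 genes tested. With edgeR's quasi-likelihood test at a Benjamini-Hochberg adjusted p under 0.05, 57 of 78 were lower and 2 higher in the nucleus. Over all genes 21.2% were lower and 26.1% higher. The 2 nuclear libraries lay below both cytosolic ones for 73 genes (35.4% of all genes) and above both for 2 (42.5%). Leaving out nuclear replicate 1 left 29 lower and 1 higher, with the lone sample assumed to vary like the other groups.

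MRPL51, a mitochondria-specific protein of the large subunit, stood at 17.9 and 18.6 normalised CPM in the nuclear libraries and at 111.0 and 75.3 in the cytosolic ones. Both nuclear values lay far below both cytosolic ones, a log2 fold change of -2.35 ± 0.40 (SE, adjusted p = 0.00103). MRPL54, another protein found only in mitochondrial ribosomes, stood at 2.49 and 5.15 in the nucleus and at 19.0 and 22.0 in the cytosol, at -2.42 ± 0.48 (adjusted p = 0.00209). Its groups did not overlap, and it had the lowest log2 fold change of the 78. MRPL28, a bacterial-type protein, stood at 19.0 and 19.2 against 98.1 and 79.7, at -2.22 ± 0.38 (adjusted p = 0.00109). MRPL13, also bacterial-type, stood at 9.34 and 5.15 against 32.8 and 37.2, at -2.26 ± 0.59 (adjusted p = 0.00792). Without nuclear replicate 2 its adjusted p was 0.064. MRPL13 shares 10 exonic bases with MTBP, which was higher in the nucleus at 1.23 ± 0.28 (adjusted p = 0.00375).

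MRPS25, a mitochondria-specific protein of the small subunit, went the other way. It stood at 138.4 and 117.9 normalised CPM in the nuclear libraries and at 57.4 and 57.5 in the cytosolic ones. The groups did not overlap and the log2 fold change was 1.16 ± 0.26 (adjusted p = 0.00385). Of its 5455 exonic bases, 957 are shared with NR2C2, the gene of a nuclear receptor, and a read there was counted for both genes without regard to strand. NR2C2 itself stood at 1.09 ± 0.32 (adjusted p = 0.0134). How much of the MRPS25 count comes from NR2C2 was not tested.

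MRPS11 and MRPL46 lie head to head on chromosome 15, with starts 51 bases apart in the hg19 annotation of the count tables. MRPL46 (chr15:89002709-89010633, minus strand), of the large subunit, stood at 16.5 and 12.9 in the nucleus and at 37.0 and 27.3 in the cytosol. MRPS11 (chr15:89010684-89023998, plus strand), a small-subunit protein with a bacterial counterpart, stood at 52.8 and 45.2 in the nucleus and at 30.2 and 26.0 in the cytosol. Neither gene's groups overlapped, and the directions were opposite: -1.13 ± 0.36 (adjusted p = 0.0196) for MRPL46 and 0.80 ± 0.28 (adjusted p = 0.0339) for MRPS11. The call of MRPS11 did not survive leaving out any library of either fraction (adjusted p from 0.079 to 0.183), and with total-count scaling its adjusted p was 0.055. The deposited annotation gives the pair no shared exonic base. RefSeq on GRCh38.p14 puts their starts farther apart, and the promoter windows printed for the pair overlap. MRPS11 spans 5224 exonic bases and MRPL46 1000.

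Nearby starts on opposite strands were counted for all 78 genes. A start on the opposite strand within 1000 bases on either side was found for 29 of 78 genes (37.2%), against 22.2% of 16288 tested genes. The count includes pairs whose spans overlap, such as MRPL9 and OAZ3, and is thus wider than the arrangement of MRPL46 and MRPS11. Of 26 distinct pairs with a tested partner, the partner was lower in the nucleus in 6 (21.2% of all genes) and higher in 6 (26.1%). EME2, the partner of MRPS34, codes for a DNA repair endonuclease subunit and stood at 2.58, while MRPS34 stood at -1.82. FAU, the partner of MRPL49, codes for a cytosolic ribosomal protein and stood at -1.55, beside -1.57 for MRPL49, but FAU and MRPL49 share exonic bases. These pairs are examples, and whether the direction of a gene goes with that of a nearby start was not tested.

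**Figure D2:**
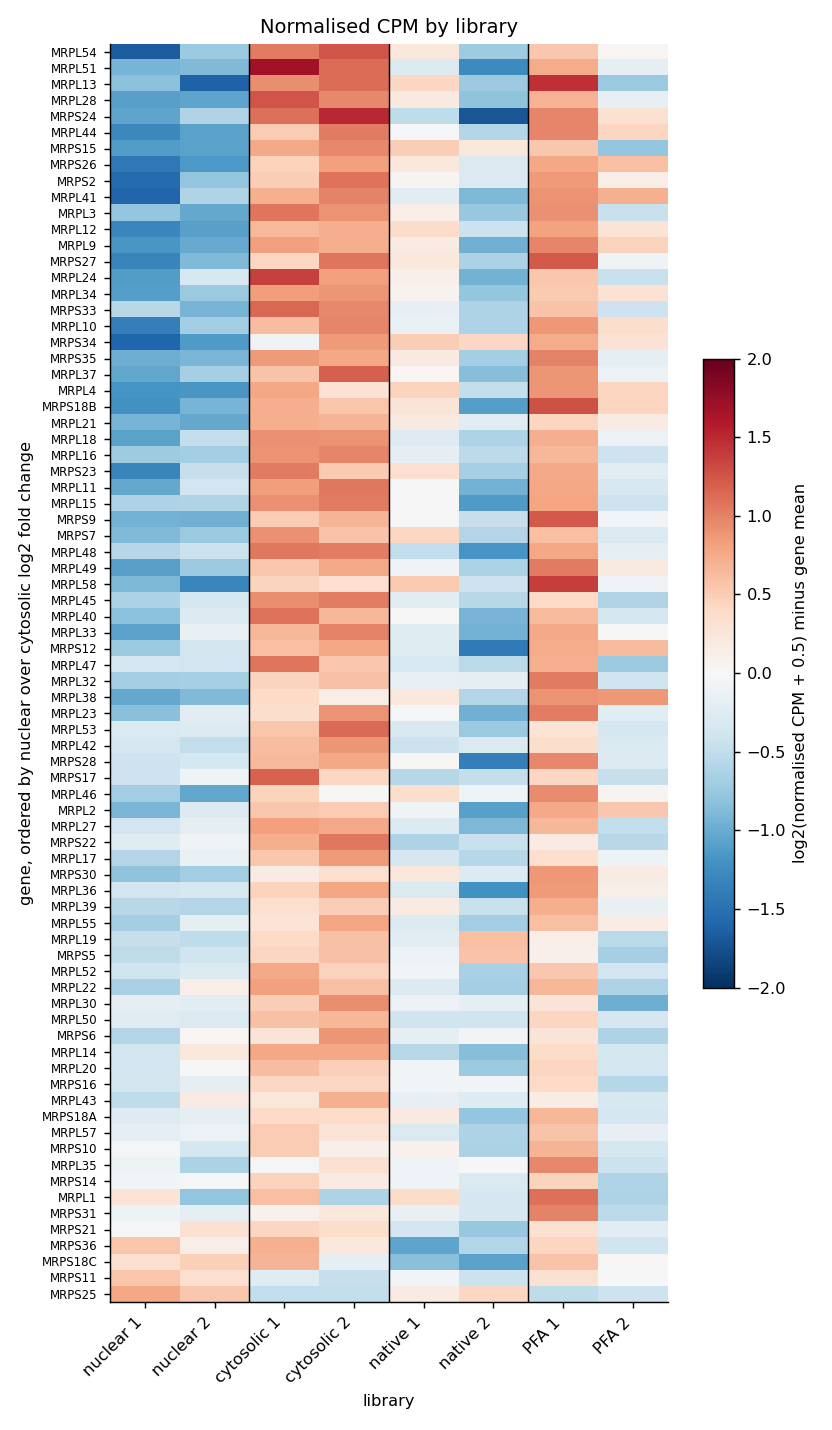
Each row is 1 of the 78 genes, ordered by nuclear over cytosolic log2 fold change, and each column a library. Colour is log2(normalised CPM + 0.5) minus the gene's mean over the 8 libraries. Most rows are blue in the nuclear and red in the cytosolic columns, MRPS25 and MRPS11 at the bottom are the reverse, and PFA replicate 1 is redder than PFA replicate 2 in nearly all rows.

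By place in the ribosome, the small subunit held 26 of the genes and the large subunit 51. MRPS30 and MRPS18A were counted with the large subunit, where their proteins sit despite the S in their names. MRPS36, now placed in the 2-oxoglutarate dehydrogenase complex, was kept apart. The counts below stand beside 21.2% lower and 26.1% higher over all genes tested. In the small subunit 16 were lower in the nucleus, 2 higher and 8 did not pass, with a median log2 fold change of -1.21. In the large subunit 41 were lower, none was higher and 10 did not pass, with a median of -1.24. Among the 16 bacterial-type proteins of the small subunit 8 were lower, median -1.06, and among its 10 mitochondria-specific proteins 8 were lower, median -1.76. In the large subunit 24 of 30 bacterial-type proteins were lower, median -1.33, and 17 of 21 mitochondria-specific ones, median -1.23. The differences between classes were not tested.

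**Figure D3:**
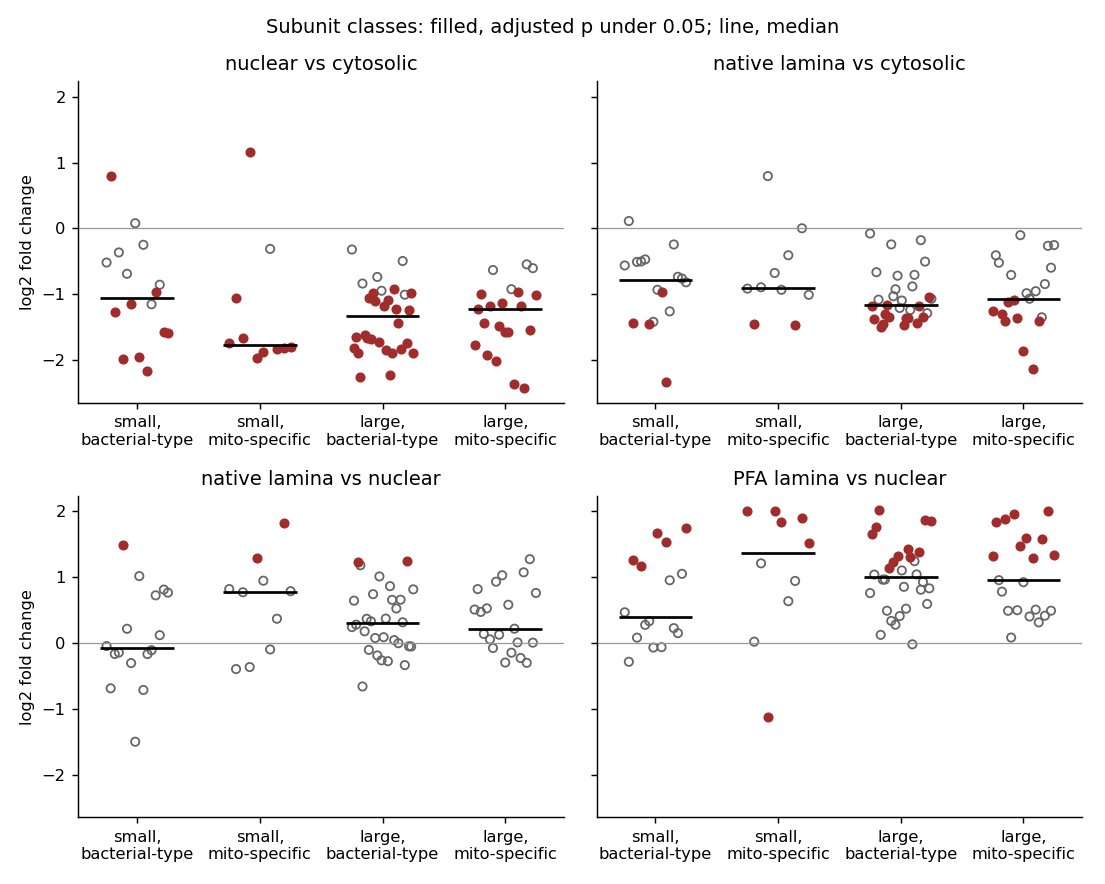
Log2 fold change (vertical axes) of each gene in 4 comparisons, by subunit and protein class. Filled points passed an adjusted p under 0.05 and lines are medians. In the nuclear-cytosolic panel the medians run from -1.76 to -1.06, and in the panel of PFA lamina against nucleus from 0.40 to 1.36.

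Exon length went with the size of the difference, as a description across genes. The 60 genes with up to 2000 exonic bases had a median of -1.51, with 48 lower and none higher in the nucleus. The 18 longer ones had a median of -0.94, with 9 lower and 2 higher. Of all genes tested, 21.2% were lower and 26.1% higher. The 2 higher ones were MRPS11 and MRPS25, and MRPS25 shares exonic bases with NR2C2. Spearman's rho between exonic length and log2 fold change was 0.29 over the 78 genes and 0.066 over all genes tested. Gene span had a similar rho of 0.28 over the 78, and mean normalised CPM had -0.23. Exonic length was thus not the only property that went with the difference. The genes share libraries, and length also sets how many counts a gene receives. The median exonic length was 1349 bases for the 78 and 3161 for all genes tested.

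Of the 3 paralogs of bacterial protein S18, only MRPS18B was called between the fractions, and differences between the paralogs were not tested. MRPS18B, in the small subunit, stood at 16.3 and 19.9 normalised CPM in the nucleus and at 63.6 and 56.9 in the cytosol, a log2 fold change of -1.73 ± 0.42 (adjusted p = 0.00542). MRPS18A, in the large subunit, stood at 22.1 and 23.0 against 34.5 and 34.0, at -0.60 ± 0.38 (adjusted p = 0.204). MRPS18C stood at 7.47 and 8.25 against 9.63 and 5.07, with overlapping groups and 0.08 ± 0.48 (adjusted p = 0.904). MRPS18C shares 663 of its 1101 exonic bases with ABRAXAS1, which stood at 1.03 ± 0.39 (adjusted p = 0.0435). MRPS18B is listed on 7 contigs, chromosome 6 and its alternative haplotypes. How reads that fit several of them were treated is not given in the sources used here.

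MRPL12, a stalk protein that has been reported to bind the mitochondrial RNA polymerase, MRPL3, near the peptidyl transferase centre, and MRPS12, at the decoding centre, were all lower in the nucleus. MRPL12 stood at 31.9 and 37.1 against 125.1 and 131.1, at -1.89 ± 0.33 (adjusted p = 0.00112). MRPL3 stood at 31.3 and 26.5 against 114.0 and 100.7, at -1.89 ± 0.42 (adjusted p = 0.00326). MRPS12 stood at 9.96 and 13.1 against 26.1 and 29.4, at -1.27 ± 0.39 (adjusted p = 0.0171). None of the 3 had overlapping groups. MRPS12 lost its call without nuclear replicate 1 (adjusted p = 0.126) or cytosolic replicate 2 (0.077), and it shares 189 exonic bases with SARS2, the mitochondrial seryl-tRNA synthetase.

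Levels between genes were compared per exonic length. MRPL12 and MRPS34 were highest, at 88.8 and 84.0 normalised CPM per kilobase over the 8 libraries. MRPS36 and MRPL1, a protein of the other ribosomal stalk, were lowest, at 2.92 and 3.94. Both low genes had under 10 counts in some library. Their nuclear-cytosolic values were -0.15 ± 0.56 and -0.32 ± 0.68, and no difference was detectable at this depth.

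At the native lamina the genes lay nearer the nuclear than the cytosolic level. Against the nucleus 5 of 78 were higher (3.87% of all genes) and none was lower (3.44%), with edgeR, where 7.31% of all genes passed in either direction. At an unadjusted p under 0.05, 19 were higher (13.4% of all genes) and 4 lower (15.4%). DESeq2 also called 5 higher (5.83% of all genes with an adjusted p) and none lower (4.67%). The median log2 fold change was 0.23 against -0.07 over all genes. The libraries did not overlap for 30 genes higher (28.2% of all genes) and 12 lower (35.1%). These were 38.5% and 15.4% of the 78. Without native replicate 1 the median was -0.02, on the other side of 0, and without native replicate 2 it was 0.51.

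MRPS34, a mitochondria-specific protein of the small subunit, was the clearest of the 5. It stood at 24.6 and 33.8 normalised CPM in the nucleus, at 105.4 and 100.5 at the native lamina and at 71.1 and 134.9 in the cytosol. Both native values lay above both nuclear ones, at 1.82 ± 0.34 (adjusted p = 0.0142), and inside the cytosolic range, at 0.00 ± 0.33 (adjusted p = 0.998). The latter value moved between -0.39 and 0.53 when either cytosolic library was left out. MRPS15, which binds ribosomal RNA in the small subunit, stood at 17.0 and 17.7 in the nucleus and at 53.0 and 43.9 at the native lamina, at 1.48 ± 0.37 (adjusted p = 0.0342). MRPS26 followed at 1.29 ± 0.30 (adjusted p = 0.0276), MRPL4 at 1.24 ± 0.34 (adjusted p = 0.0466) and MRPL12 at 1.23 ± 0.32 (adjusted p = 0.0394). None of these 5 overlapped the nuclear pair. MRPL12 stood at 102.5 and 58.9 at the native lamina, a wide gap between replicates.

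These 5 calls rest on few libraries. No gene was called without nuclear replicate 1, nuclear replicate 2 or native replicate 1, and 2 were called without native replicate 2 or either cytosolic library. Without PFA replicate 1 there were 15 (14 higher, 1 lower), and without PFA replicate 2 there were 14 (13 higher, 1 lower). The spread is shared by all libraries in the fit. MRPS18C was lowest, at 3.01 and 2.50 against 7.47 and 8.25 in the nucleus, at -1.50 ± 0.50 (adjusted p = 0.0765). ABRAXAS1, which shares 663 exonic bases with it, was called lower at -1.62 ± 0.39 (adjusted p = 0.0323). How much of the MRPS18C count comes from ABRAXAS1 was not tested.

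Against the cytosol 29 of 78 genes were lower at the native lamina (6.77% of all genes) and none was higher (6.99%). At an unadjusted p under 0.05, 53 were lower (14.5% of all genes) and 1 higher (17.1%). DESeq2 called 34 lower (8.71% of all genes with an adjusted p) and 1 higher (8.51%). The median was -1.03 against 0.10 over all genes. Both native libraries lay below both cytosolic ones for 66 genes (28.4% of all genes) and above them for 1 (35.8%), MRPS25. NR2C2, which shares exonic bases with MRPS25, was itself called higher at 1.21 ± 0.32 (adjusted p = 0.0258). Total-count scaling, which raised the median of all genes in this comparison from 0.10 to 0.39, left 7 lower and 1 higher. The native lamina and the 2 fractions share libraries between comparisons, so these counts are not independent.

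MRPS24 and MRPL51 had the lowest values. MRPS24, the small-subunit counterpart of bacterial S3, stood at 18.3 and 7.66 at the native lamina and at 56.6 and 75.1 in the cytosol, at -2.32 ± 0.41 (adjusted p = 0.00698). Of its 696 exonic bases 606 are shared with the read-through gene URGCP-MRPS24, so reads of the pair cannot be separated. MRPL51 stood at 28.2 and 14.0 against 111.0 and 75.3, at -2.14 ± 0.39 (adjusted p = 0.0078). MRPL48 stood at -1.87 ± 0.38 (adjusted p = 0.0102) and MRPL14, a bacterial-type protein of the large subunit, at -1.49 ± 0.33 (adjusted p = 0.0145). None of the 4 overlapped the cytosolic pair, yet each lost its call without at least 1 of the cytosolic libraries. Leaving out cytosolic replicate 1, cytosolic replicate 2 or native replicate 2 left 1 gene called, leaving out nuclear replicate 1 left 17, and leaving out either PFA library gave 51 (50 lower, 1 higher).

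By mean level, the native lamina lay between nucleus and cytosol, with the nucleus lowest, for 50 genes (26.1% of all genes). It lay below both fractions for 26 (19.1%) and above both for none (20.3%). Replicate 1 exceeded replicate 2 for 68 of 78 genes, with a median ratio of 1.45. Over all genes replicate 1 was higher in 51.6%. The summed nuclear-retained RNAs moved the other way, at 6575 in replicate 1 and 13937 in replicate 2. Their part in the result was not tested.

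**Figure D4:**
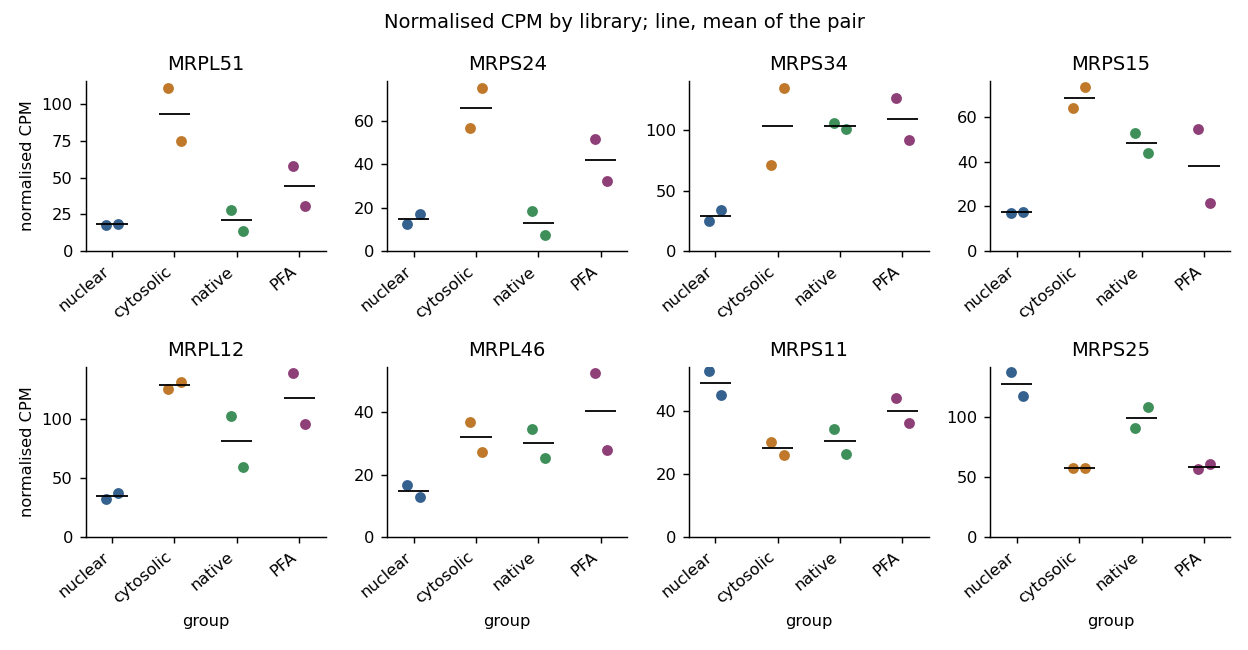
Normalised CPM (vertical axes) by group for 8 named genes. Points are libraries and lines are means of each pair. MRPL51 and MRPS24 are low in the nucleus and at the native lamina, MRPS34 is low in the nucleus alone, and MRPS11 and MRPS25 are highest in the nucleus.

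At the PFA lamina the level differed between the libraries. Without replicate 1 the median log2 fold change was 0.33 against the nucleus and -0.99 against the cytosol, nearer the nuclear level, and without replicate 2 it was 1.36 and -0.05, nearer the cytosolic level. Against the nucleus 31 of 78 were higher (9.63% of all genes) and 1 was lower (7.81%). With both libraries the median was 0.96 against -0.04 over all genes. The libraries did not overlap for 47 genes higher (30% of all genes) and 2 lower (32.2%). In the small subunit 10 of 26 were higher and in the large subunit 21 of 51. Leaving out nuclear replicate 1 left none called, leaving out nuclear replicate 2 left 8, and leaving out PFA replicate 1 left 10. Leaving out PFA replicate 2 gave 53 (52 higher, 1 lower). A fit of only the 4 libraries compared called 10.

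MRPS26, a mitochondria-specific protein of the small subunit, stood at 15.6 and 18.9 normalised CPM in the nucleus and at 73.4 and 64.7 at the PFA lamina. The gap within each pair was small beside the distance between them, at 2.00 ± 0.30 (adjusted p = 0.00577). MRPL58, a peptidyl-tRNA hydrolase that is part of the large subunit, stood at 7.94 and 5.84 against 40.3 and 14.3, at 2.01 ± 0.48 (adjusted p = 0.018). MRPL13 stood at 9.34 and 5.15 against 47.3 and 9.93, at 2.01 ± 0.59 (adjusted p = 0.0354). In both, PFA replicate 2 was nearer the nuclear values than replicate 1, and without PFA replicate 1 the log2 fold changes were 1.07 and 0.46, with neither called. Neither was called without either nuclear library, nor MRPL13 without either cytosolic one (adjusted p = 0.052 and 0.053). MRPS18B stood at 93.5 and 51.9 against 16.3 and 19.9, at 2.01 ± 0.42 (adjusted p = 0.0111). MRPS34 stood at 126.2 and 92.0, above both nuclear values, at 1.90 ± 0.35 (adjusted p = 0.00754). The 1 lower gene was MRPS25, at 56.9 and 60.7 against 138.4 and 117.9, a change of -1.12 ± 0.26 (adjusted p = 0.017). MRPS25 was not called without either nuclear library or PFA replicate 1. NR2C2, which shares 957 exonic bases with MRPS25, stood at -0.89 ± 0.32 (adjusted p = 0.0664).

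Against the cytosol edgeR called no gene at the PFA lamina in either direction (0.673% of all genes passed, 0.527% higher and 0.145% lower). At an unadjusted p under 0.05, 11 were lower (8.61% of all genes) and none was higher (12.9%). DESeq2 called none (2.71% of all genes with an adjusted p lower, 3.48% higher). The median was -0.40 against 0.08 over all genes, and the libraries did not overlap for 31 genes lower (23.0%) and 3 higher (25.2%). MRPL51 was lowest, at 58.2 and 30.5 against 111.0 and 75.3, a log2 fold change of -1.06 ± 0.38 (adjusted p = 0.141). MRPS22, of the small subunit, stood at -1.04 ± 0.32 (adjusted p = 0.107). At the other end MRPL38, of the large subunit, stood at 100.9 and 99.0 against 71.4 and 58.8, at 0.62 ± 0.30 (adjusted p = 0.253), and MRPS11 at 0.52 ± 0.29 (adjusted p = 0.309). Without PFA replicate 1 the median was -0.99. The low count of calls is thus no sign that PFA lamina and cytosol held equal levels.

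Between the preparations edgeR called none of the 78 genes, as it called none of all genes (0% in either direction). At an unadjusted p under 0.05, 23 were higher at the PFA than at the native lamina (5.44% of all genes) and 1 was lower (5.6%). DESeq2 called 1 higher (0.858% of all genes with an adjusted p) and none lower (1.76%). The median was 0.65 against 0.06 over all genes, and the libraries did not overlap for 28 genes higher (19.9%) and 1 lower (18.7%). MRPS24 stood at 51.9 and 32.4 at the PFA lamina and at 18.3 and 7.66 at the native lamina, a log2 fold change of 1.69 ± 0.40 (adjusted p = 0.285). MRPS12 stood at 28.8 and 26.5 against 14.2 and 6.04, at 1.43 ± 0.39 (adjusted p = 0.313). MRPS25 was lowest, at -0.76 ± 0.26 (adjusted p = 0.344), followed by MRPS5, of the small subunit, at -0.50 ± 0.32 (adjusted p = 0.587). NR2C2, which shares exonic bases with MRPS25, stood at -1.01 ± 0.32 (adjusted p = 0.320). Without PFA replicate 1 the median was 0.05 and no gene was called, and without PFA replicate 2 it was 1.01, with 12 called higher.

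The PFA pair was the least alike of the 4 pairs. Replicate 1 exceeded replicate 2 for 77 of 78 genes, with a median ratio of 1.84, against 49.1% of all genes. In the nuclear pair replicate 1 was higher for 20 of 78 genes, with a median ratio of 0.906, against 44.7% of all genes. In the cytosolic pair it was higher for 35, with a median ratio of 0.948, against 49.4% of all genes. Nuclear-retained RNAs differed in the same pair, at 870 in PFA replicate 1 and 4273 in replicate 2, as did total counts (5859026 and 2321291). The part of either in the result was not tested. By mean level, 33 genes had the order nuclear, native, PFA, cytosolic from low to high. Another 21 had native below nuclear with PFA and cytosolic above, and 13 had PFA highest, above cytosolic, native and nuclear. These orders were counted for the 78 only, so they cannot be read as particular to these genes.

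The genes whose profile over the 8 libraries was most like the mean of the 78 were C6orf201 (Pearson r = 0.997), LSM1 (0.992), ATP5C1 (0.992), PTRHD1 (0.991) and COPS3 (0.990). This is a description over 8 libraries in 4 groups. ATP5C1, a subunit of the mitochondrial ATP synthase, stood at 33.9 and 40.4 normalised CPM in the nucleus, 135.7 and 149.9 in the cytosol, 68.6 and 42.1 in the native preparation, and 130.3 and 55.5 in the fixed one. Among the 78, MRPL11 followed the group mean most closely (r = 0.982). The lowest values were those of MRPS25 (-0.87), MRPS11 (-0.33) and MRPS18C (0.37).

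Other parts of the same machinery were measured beside these genes. Of 5 further ribosomal proteins under other symbols, 3 were lower in the nucleus (21.2% of all genes) and 1 was higher (26.1%). DAP3 did not pass (-0.60 ± 0.33, adjusted p = 0.145). GADD45GIP1 stood at 13.5 and 16.1 in the nucleus and at 74.2 and 74.6 in the cytosol, at -2.33 ± 0.31 (adjusted p = 0.00058). It was also higher at the native (1.85) and PFA lamina (2.02) than in the nucleus. PTCD3, a small-subunit protein of the pentatricopeptide type, stood at 177.6 and 196.7 against 101.5 and 129.6, at 0.70 ± 0.27 (adjusted p = 0.0466), like MRPS25 and MRPS11 in direction. RNR1 and RNR2 were not called between the fractions, at 1.15 ± 0.69 and 1.54 ± 0.78. RNR2, the large-subunit RNA, was lower at the native lamina than in the nucleus at -3.27 ± 0.84 (adjusted p = 0.0373), in the direction opposite to the median of the protein genes.

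The counts of the next lists stand beside 21.2% lower and 26.1% higher over all genes tested. Of 20 genes of mitochondrial protein import 15 were lower in the nucleus and none higher, with a median of -1.19 and TOMM7, a small subunit of the outer-membrane translocase, lowest at -2.49 ± 0.45 (adjusted p = 0.00138). Of 14 translation factors 4 were lower and 2 higher, median -0.47, with TACO1, a translational activator, at -1.47 and MTRF1L, a release factor, at 1.47. Of 20 mitochondrial aminoacyl-tRNA synthetases and related enzymes 6 were lower and 1 higher, median -0.40, from IARS2 at -1.63 to AARS2 at 0.81. Of 24 factors of ribosome assembly and rRNA modification 9 were lower and 4 higher, median -0.20, from C1QBP at -2.15 to MTERF4 at 1.73. Their median exonic lengths were 1730.5, 2575, 2961 and 2267 bases, all longer than the 1349 of the ribosomal proteins. Of 5 cytosolic messenger markers, such as GAPDH and ACTB, all were lower in the nucleus, median -2.49. These lists were described by counts and medians, and differences between them were not tested.

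**Figure D5:**
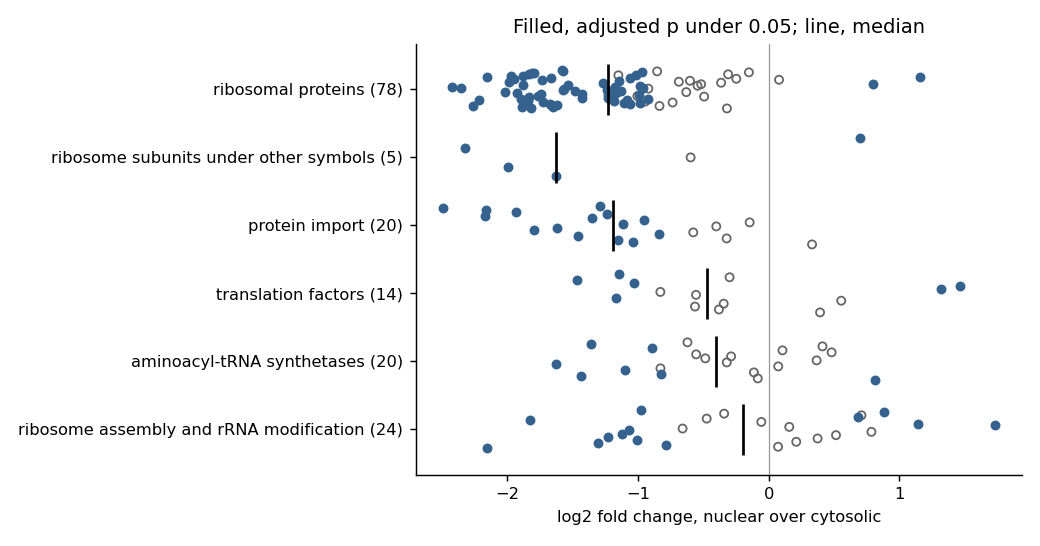
Log2 fold change, nuclear over cytosolic (horizontal axis), of each tested gene in 6 lists of mitochondrial translation or protein import. The number tested is in brackets. Filled points passed an adjusted p under 0.05 and lines are medians, which run from -1.63 for the ribosomal subunits under other symbols to -0.20 for assembly factors.

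Lamina-associated domains were deposited for HCT116, a colorectal carcinoma line, as 1 list per cell-cycle stage without replicates. No gene of the 78 lay inside a domain in G1 or S, and MRPL36 did in G2. Over all tested genes with a position on hg19, 1.73% lay wholly inside a domain in G1, 1.48% in S and 2.61% in G2. Counting an overlap of at least 1 base gave the same numbers for the 78. MRPL36, a small bacterial-type protein of the large subunit, lies at chr5:1798499-1799956, in a G2 domain of chr5:1200001-10200000. In HEK293FT its RNA stood at 9.34 and 9.62 normalised CPM in the nucleus, 16.8 and 21.4 in the cytosol, 9.87 and 5.01 in the native preparation, and 22.4 and 13.2 in the fixed one. It was lower at the native lamina than in the cytosol (-1.34 ± 0.41, adjusted p = 0.0459) and passed no other test. Domains and RNA come from different cell lines.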

How the data were processed

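Counts per gene symbol were deposited for 8 RNA libraries of HEK293FT. Per the file headers, the authors made these raw counts with featureCounts 1.5.2 on hg19 and the RefFlat annotation, ignored strand, and counted a read over several genes for each of them. TopHat2 2.1.1 and Bowtie2 2.3.2 are named without a role, per the submitters' processing notes. The header of cytosolic replicate 1 gives nuclear replicate 1 as its output name but cytosolic replicate 1 as its input, and the label was followed. Domain lists of HCT116 are intervals with no score, which the deposited files' titles call an HMM (hidden Markov model) consensus, and the caller and its settings are not given in the sources used here.

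The 78 genes and the other lists were chosen with earlier results of these data known, the classes from textbook knowledge. Genes left by filterByExpr (16504) entered 1 edgeR model (version 4.0.16, R 4.3.3) of the 8 libraries, scaled by TMM and tested by quasi-likelihood. The 6 contrasts were each adjusted by Benjamini-Hochberg over all genes, with a threshold of 0.05. Normalised CPM are counts scaled by library total and TMM factor. The standard error of a log2 fold change is its size divided by the square root of the F statistic. Total counts of 2321291 to 8557777 set the precision, and since reads carried no molecular identifiers, Wilson intervals cover counting error only. Of the 78 genes, 15 share exonic bases with another row.

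Genes named were, per contrast, the 4 called with the largest and the 4 with the smallest log2 fold change (2 each where none was called), the 2 highest and 2 lowest levels per kilobase, the MRPS18 paralogs, MRPL12, MRPS12 and MRPL3. Subunits under other symbols, the RNA genes and the extreme called gene of each other list were added. MRPL46, MRPL36, EME2, FAU, the exon-sharing genes and the profile extremes were named after their values were seen. The fit was tested on simulated counts. Alternatives were DESeq2 size factors, total counts, upper-quartile factors, a Wald test (DESeq2 1.42.0), a block by replicate, no filter or a minimum of 10 counts per library, only the 4 libraries compared, members without shared exons, and leaving out each library in turn. Samples of K562, whose labels conflict, and the DNA signal tracks were not used here. The K562 and ChIP samples enter no comparison.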

Additional observations from a re-analysis of the deposited data

How the results depend on the processing

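Called genes among the 78 numbered 59 between the fractions, 5 for native lamina against nucleus, 29 for native lamina against cytosol, 32 for PFA lamina against nucleus, and 0 for PFA lamina against cytosol and against native lamina. Native lamina against nucleus gave 13 with total counts, 3 with upper-quartile factors, 12 without a filter and 19 with only the 4 libraries compared. Native lamina against cytosol gave 8 with total counts, 44 without a filter and 46 with only the 4 libraries. PFA lamina against nucleus gave 10 with only the 4 libraries. Without a filter PFA lamina gave 3 against cytosol and 4 against native lamina, where the DESeq2 Wald test gave 1. The cause was not tested. Shares of all genes called under these settings or with a library left out are not given here. Changes in called counts, here or above, thus cannot be read as particular to the 78. Leaving out each library in turn gave 30 to 67, 0 to 15, 1 to 51, 0 to 53, 0 to 23 and 0 to 12, in the order above. With a replicate block the counts were 62, 7, 38, 33, 0 and 0, all within 1.5 times. The labels do not pair libraries by number, and the correlation of same-numbered deviations ran from -0.034 to 0.352.

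Total counts moved the median of all genes from -0.07 to 0.22 in native lamina against nucleus and from 0.10 to 0.39 against cytosol, while the median of the 78 moved from 0.23 to 0.50 and from -1.03 to -0.73. Relative to all genes the distance thus stayed near its former size. Upper-quartile factors moved the nuclear-cytosolic median of all genes from 0.13 to 0.40 and that of the 78 from -1.23 to -0.97. For single named genes 1145 values stayed on their side of the threshold, 93 lost it, 28 gained it, 63 moved and none reversed. With 2 libraries a group, low levels such as those of MRPL1 and MRPS36 allow only large differences to be seen.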
